A study of Homo sapiens with 6 samples.

Results

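The genes described here are 47 genes of the Wnt pathway, chosen by gene symbol: ligands, the proteins that secrete them, receptors, inhibitors, intracellular transducers and nuclear factors. Of these, 44 have a row among the 34234 genes of the deposited counts, and 32 passed the filter on low counts that left 17935 genes to test. WNT6, DKK4 and SFRP1 were not analysed here. RNA was sequenced from HCCLM3, a human hepatocellular carcinoma line of high metastatic potential, grown in DMEM with serum. Both groups were exposed to lentivirus in medium without antibiotic: 3 libraries (shcontrol) came from cells given a control hairpin and 3 (shATXN7L3) from cells given a short hairpin RNA against ATXN7L3. The time of harvest is not given in the labels. The labels give no sequence for the hairpin, name no other hairpin against the gene, and do not tie the libraries to independent cultures. The tests therefore weigh differences against how far these libraries vary, and that variation may be technical.

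A Wnt protein is lipid-modified by PORCN, carried to the cell surface by WLS and bound there by a Frizzled receptor (FZD) with the co-receptor LRP5 or LRP6. Dishevelled proteins (DVL) then inhibit a destruction complex built on AXIN and APC, beta-catenin (CTNNB1) accumulates, and it switches on genes with factors of the TCF/LEF family. Many of the genes switched on act back on the pathway: AXIN2 and NKD1 inside the cell, RNF43 and ZNRF3 by removing Frizzled receptors, NOTUM by removing the lipid from Wnt proteins, DKK1 by blocking the co-receptor, and LGR5 as a receptor for R-spondins. In the liver this signalling sets the zonation of metabolism, and mutations that activate beta-catenin are common in hepatocellular carcinoma.

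Libraries held 22376867 to 23915783 counts. ATXN7L3, which encodes an adaptor of the histone deubiquitinase module of the SAGA coactivator, stood at 36.4, 37.5 and 37.5 CPM in the control libraries and at 20.6, 20.5 and 19.5 CPM in the knockdown libraries, so the labels hold for the targeted gene. CPM are counts scaled to a common library size with TMM factors. Of the hepatocyte markers ALB, AFP, TTR, APOA1, SERPINA1, TF and HNF4A, 6 were tested and 6 fell, and their summed level went from between 314 and 362 CPM to between 100 and 103 CPM. TF, the largest part of that sum, went from a mean of 206 CPM to 35.9 CPM (log2 fold change -2.52), while HNF4A changed least (-0.38). TTR, with 3 to 20 counts per library, was tested because of its level in the control libraries, so its fall adds little to the 6; APOA1 had 2 to 12 counts. The defining markers of leukocytes (PTPRC), endothelium (CDH5) and fibroblasts (COL1A1, COL3A1, PDGFRB) were at no more than 9 counts in any library. The summed endothelial list, nearly all of it PECAM1, went from 40.3 to 47 CPM in shcontrol to 27.5 to 28.9 in shATXN7L3, and the fibroblast list, nearly all of it LUM, from 23.6 to 27.5 CPM to 5.14 to 5.77. The leukocyte list went from 89.9 to 110 CPM to 120 to 125 through CD68, which rose (0.28), while LYZ fell (-2.42) from 14 to 26 counts per library to 2 to 6 and was tested because of its control level. The cholangiocyte list went from 54.3 to 67.4 CPM to 74.0 to 80.9: KRT19 (0.40) and the rare EPCAM (1.42, tested because of its level in shATXN7L3) rose and KRT7 (-0.44) fell. The part that any of these shifts has in the Wnt results was not tested, and in bulk RNA fewer cells of a type and less RNA per cell cannot be told apart.

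Across the transcriptome 24.2% of tested genes passed the threshold (an adjusted p under 0.05 in edgeR's quasi-likelihood test), 12.2% as higher and 12.0% as lower in shATXN7L3. Of the 32 tested Wnt genes, 13 fell, 5 rose and 14 did not pass, with a median log2 fold change of -0.19 against 0.01 over all tested genes. Of the 32, 5 passed and moved by at least 0.5 on the log2 scale, against 6.66% of all tested genes. The 5 are WNT5A, WNT7B, LGR5, NKD1 and NOTUM, and NOTUM passed the filter on low counts through the control libraries alone. The groups did not overlap in 22 of the 32, where 38.3% of all tested genes were separated in this way. Of all calls, 50.4% were higher, but 64.8% with scaling by library size alone. Under that scaling 5 of the Wnt genes rose and 12 fell. The 12 Wnt genes with a row that were not tested had at most 8 counts in any library.

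**Figure D1:**
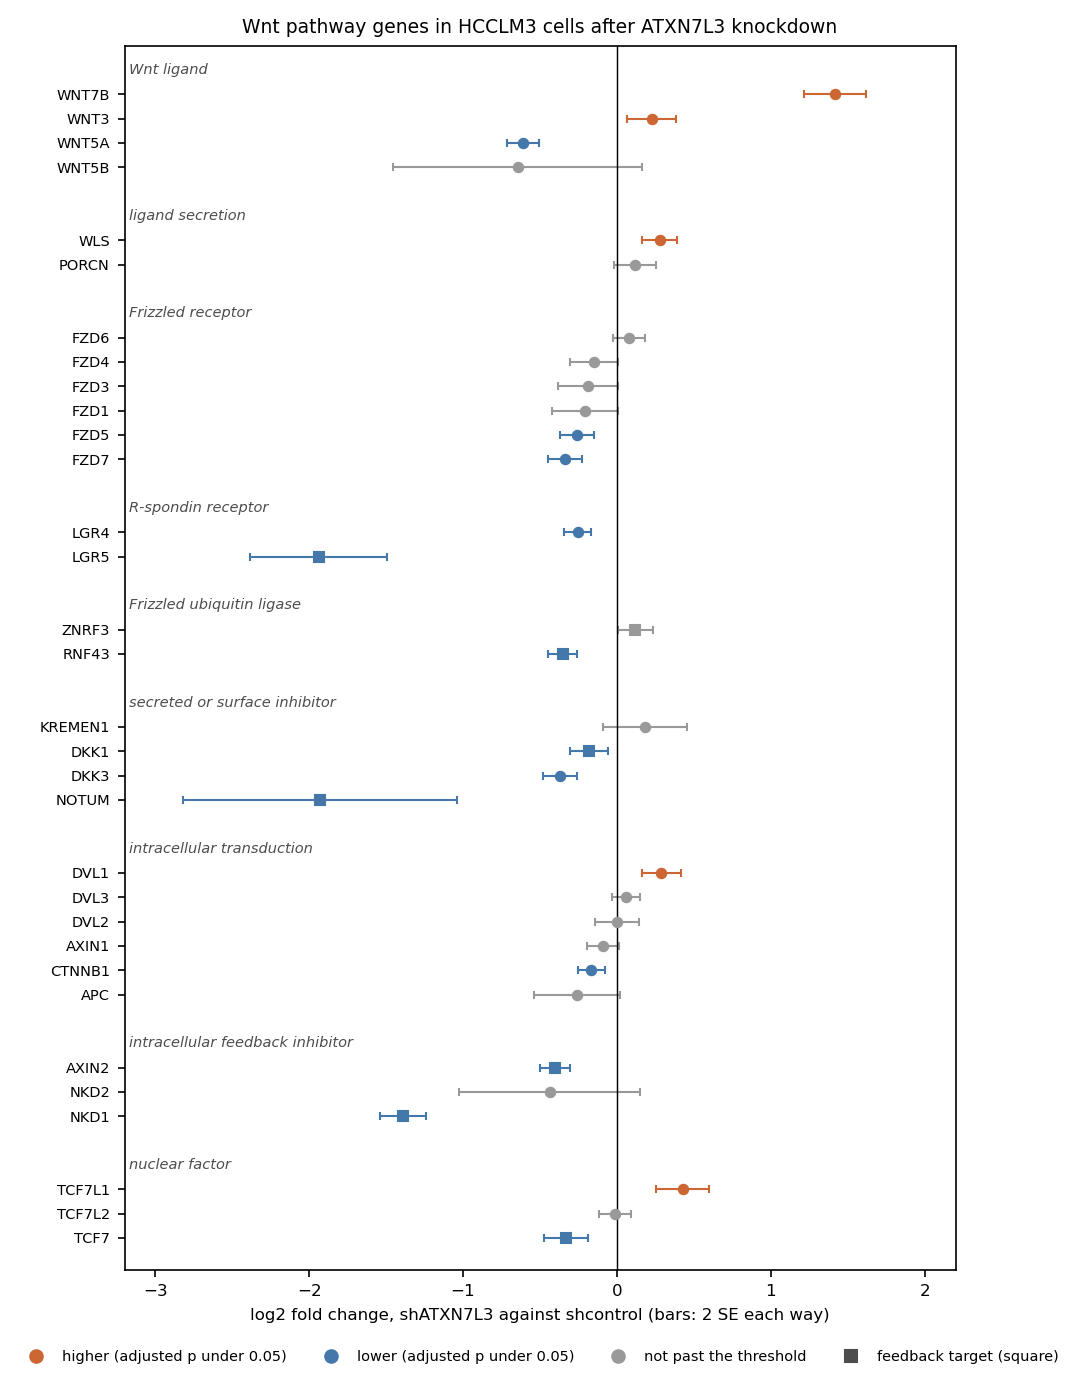
Log2 fold change (shATXN7L3 against shcontrol) of the 32 tested Wnt genes, grouped by role, with bars of 2 SE each way. Orange points rose, blue points fell, grey points did not pass the threshold, and squares mark the feedback targets, of which 7 of 8 tested lie to the left; WNT7B (1.42) lies farthest to the right and LGR5 (-1.94) farthest to the left.

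Wnt ligands went both ways, whereas the Frizzled receptors and the feedback targets that passed the test all fell. Among the 10 Wnt and 9 Frizzled genes, 10 were tested, 2 rose, 3 fell and 5 did not pass, with a median log2 fold change of -0.20. Both that rose are ligands, WNT7B and WNT3, and the call of WNT3 ended under 9 of 14 alternatives. Those that fell are WNT5A, FZD5 and FZD7. Among the 12 genes known as targets of beta-catenin and TCF that act back on the pathway or in its nuclear step (AXIN2, NKD1, RNF43, ZNRF3, LGR5, NOTUM, APCDD1, SP5, LEF1, TCF7, DKK1 and DKK4), 8 were tested, 7 fell and 0 rose, with a median of -0.38. ZNRF3 was the 1 that did not pass. Calls took 50% of the tested ligands and receptors and 87.5% of the tested feedback targets, beside 24.2% of all tested genes. The 7 became 6 with DESeq2, with library size alone, and without shcontrol replicate 2 or any of the shATXN7L3 libraries, each time through DKK1, and 6 with a stricter filter, under which NOTUM was not tested. NOTUM passed the filter on low counts through the control libraries alone, and its test is to be read with that in mind. The remaining 14 tested genes gave 3 higher, 3 lower (42.9% called) and a median of -0.00. No test of the difference between these lists was made, and they were chosen with earlier results of these data known. Further known targets, kept in a separate list below, went both ways.

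The regions just before the start of transcription were searched for the letters that TCF factors bind. The 250 bases before the RefSeq start (build GRCh38.p14) were found for 32 of the 47 genes; NKD1, LGR5, AXIN2, NOTUM, ZNRF3 and WNT7B were not among them. They were searched on both strands for 4 different motifs of 7 letters, none of which contains another. The motifs were CTTTGAA for the first, CTTTGAT for the next, then CTTTGTA, and lastly CTTTGTT. A match was present in 2 of the 32, DKK1 and SP5. These are 2 of the 6 feedback targets with a window. RNF43 and TCF7, which fell, and LEF1 and APCDD1, which were not tested, had no match in theirs. Other starts of the same gene were not searched. The windows of TCF7, LEF1, WNT3, WNT5A, WNT5B, WNT10A, CTNNB1 and WLS lie inside the counted extent of these genes. Those of RNF43, APCDD1, WNT7A, FZD1, PORCN and DVL2 lie partly inside theirs. Matches were found in 0 of the 13 ligand and receptor promoters, in 12.0% of 35116 promoters in the table and in 7.93% of the 10568 promoters of tested genes. The DKK1 window (chr10:52314031-52314280, plus strand) has matches that begin 95 and 76 bases before the start and overlaps an exon of the antisense gene PRKG1-AS1. The SP5 window (chr2:170715087-170715336, plus strand) has 3, beginning 148, 109 and 84 bases before the start. The window of FZD5 (chr2:207769907-207770156, minus strand), a receptor that fell, is shown beside them as one without a match. A match describes letters and does not show binding. Capitals mark the matches, and each sequence runs 5′ to 3′ toward the start.
DKK1: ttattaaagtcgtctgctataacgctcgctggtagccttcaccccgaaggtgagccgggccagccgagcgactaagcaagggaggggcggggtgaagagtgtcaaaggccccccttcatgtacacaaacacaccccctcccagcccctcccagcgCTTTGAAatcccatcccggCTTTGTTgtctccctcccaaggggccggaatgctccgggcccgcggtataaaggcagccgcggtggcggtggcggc
SP5: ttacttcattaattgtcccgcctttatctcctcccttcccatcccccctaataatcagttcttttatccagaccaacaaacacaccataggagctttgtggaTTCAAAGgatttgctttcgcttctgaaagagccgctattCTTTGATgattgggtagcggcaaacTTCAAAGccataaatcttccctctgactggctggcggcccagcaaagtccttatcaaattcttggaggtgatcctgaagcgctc
FZD5: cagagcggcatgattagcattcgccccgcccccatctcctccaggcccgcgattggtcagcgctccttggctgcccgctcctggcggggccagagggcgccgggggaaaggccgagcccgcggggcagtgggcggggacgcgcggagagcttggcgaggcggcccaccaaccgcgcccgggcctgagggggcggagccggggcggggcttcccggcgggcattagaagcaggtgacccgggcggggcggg

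The ligand repertoire was led by WNT5A, a ligand known mainly for signalling that does not pass through beta-catenin. WNT5A (chromosome 3, 55465715 to 55490539) stood at 188, 170 and 196 CPM in shcontrol and at 122, 117 and 123 CPM in shATXN7L3. All knockdown libraries lay below all control libraries, and the log2 fold change was -0.61 ± 0.051 (SE; edgeR adjusted p = 3.63e-08). WNT7B (chromosome 22, 45920362 to 45977129), a ligand of epithelia that can signal through beta-catenin, went the other way, from 5.29, 4.46 and 5.14 CPM to 13.0, 12.2 and 14.6 CPM. This was a 2.67-fold rise (1.42 ± 0.10, edgeR adjusted p = 2.75e-09), the groups lay far apart, and the rise was between 1.34 and 1.47 under every alternative run. WNT3 rose by 0.23 ± 0.079 on the log2 scale, from 11.1 ± 0.736 to 13.0 ± 0.468 CPM (SD, n = 3 libraries each; edgeR adjusted p = 0.0431), without overlap between the groups. That call is weak: it ended under 9 of 14 alternatives, including DESeq2 (adjusted p = 0.178), the removal of shcontrol replicate 2 (0.167) or 3 (0.0658), and that of shATXN7L3 replicate 1 (0.0585), 2 (0.115) or 3 (0.138).

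The other Wnt genes of the 47 were scarce. WNT5B lay between 0.209 and 0.615 CPM over the 6 libraries with overlapping groups (-0.64 ± 0.41, edgeR adjusted p = 0.277). WNT3A, WNT9A and WNT11 had 0 to 5 counts per library, and WNT7A and WNT10A had 1 count in all libraries together. For none of these 5 is a fold change given, since both groups were at or near the limit of 3 counts per library (0.124 to 0.138 CPM).

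Counts per kilobase of exon (RPKM) allow ligands to be compared with each other, although a summed exon length understates genes of which the cells use a short form. On that scale WNT5A led in both groups (24.5 ± 1.80 and 16.0 ± 0.470 RPKM). WNT3 came next (2.56 ± 0.170 and 2.99 ± 0.108) and WNT7B after it (0.983 ± 0.0870 and 2.63 ± 0.239). WNT3 and WNT7B were well apart in shcontrol and close to each other in shATXN7L3. As a share of the summed RPKM of 17 Wnt genes with a row, WNT5A went from 82.7% ± 0.797 to 69.4% ± 0.803, WNT7B from 3.31% ± 0.112 to 11.4% ± 0.771 and WNT3 from 8.63% ± 0.340 to 12.9% ± 0.531. The sum itself went from 29.7 ± 2.03 to 23.1 ± 0.550 RPKM. These shares are descriptions and were not tested.

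**Figure D2:**
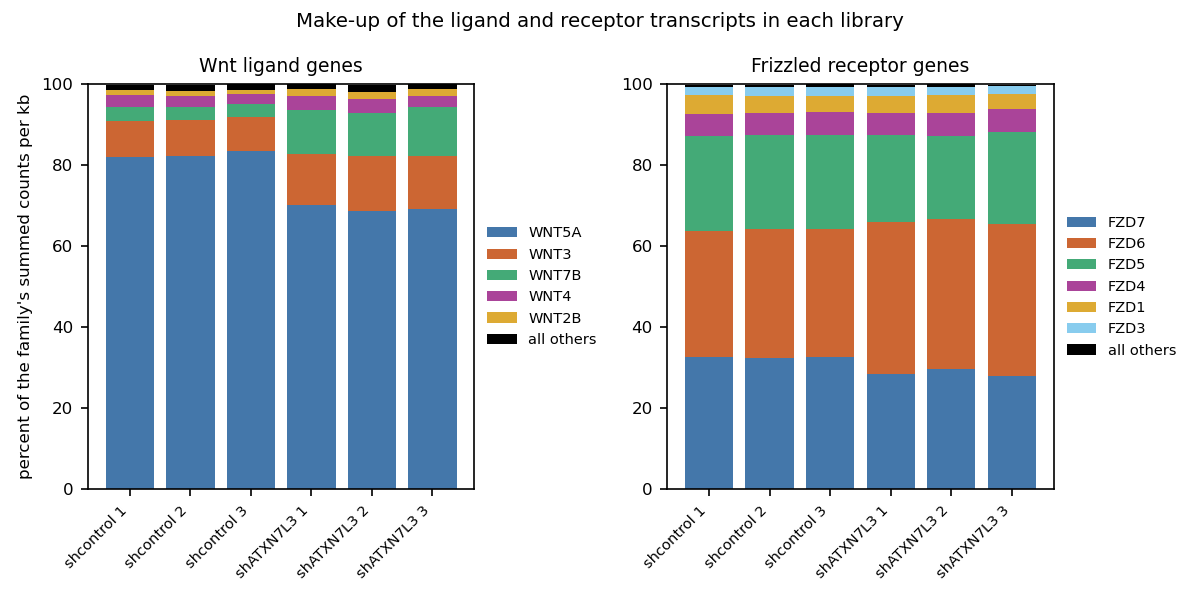
Share of each gene in the summed counts per kilobase of its family, in percent, for each library, as stacked bars; left, 17 Wnt ligand genes, right, 9 Frizzled receptor genes. WNT5A takes a mean of 82.7% of ligand transcripts in shcontrol and 69.4% in shATXN7L3, and WNT7B 3.31% and 11.4%, while FZD6 goes from 31.7% to 37.3% of receptor transcripts.

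Of the genes for ligand secretion, WLS, the carrier that brings Wnt proteins to the surface, rose from 35.4, 34.3 and 31.8 CPM to 39.3, 41.3 and 42.4 CPM. The groups did not overlap (0.28 ± 0.056, edgeR adjusted p = 0.00105). PORCN, the enzyme that attaches the lipid, lay between 15.7 and 18.6 CPM with overlapping groups (0.12 ± 0.069, edgeR adjusted p = 0.247).

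Among the Frizzled receptors, FZD7 and FZD5 fell and none of the 6 tested rose (33.3% called, beside 24.2% of all tested genes). FZD7 went from 34.7, 33.0 and 33.2 CPM to 27.0, 27.1 and 25.7 CPM, so that the groups were well separated (-0.34 ± 0.055, edgeR adjusted p = 1.36e-04). FZD5 fell by 0.26 ± 0.056 on the log2 scale, from 41.9 ± 1.18 to 34.9 ± 2.10 CPM (SD, n = 3 libraries each; edgeR adjusted p = 0.00175). FZD1 (-0.21), FZD3 (-0.19), FZD4 (-0.15) and FZD6 (0.08) did not pass the test. The interval of 2 SE each way ran from -0.02 to 0.18 for FZD6, so a rise of that size is not excluded by it. FZD2 had 4 to 8 counts per library, and FZD8 and FZD9 had 0 to 3. FZD4 overlaps 1399 of its 7383 exonic bases with PRSS23 on the opposite strand, a gene with many more counts, and whether counting used strand is not stated.

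Per kilobase, FZD7 (8.71 ± 0.238 RPKM) and FZD6 (8.50 ± 0.0846) differed in shcontrol by less than the SD of FZD7, with FZD5 below them (6.24 ± 0.176). In shATXN7L3 the order was FZD6 (8.99 ± 0.172), FZD7 (6.89 ± 0.204) and FZD5 (5.21 ± 0.314), each gap being larger than the spread of the libraries. FZD6 made up 31.7% ± 0.419 of Frizzled transcripts in shcontrol and 37.3% ± 0.283 in shATXN7L3, and FZD7 32.5% ± 0.174 and 28.6% ± 0.876.

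R-spondin receptors protect Frizzled proteins from removal by RNF43 and ZNRF3. LGR5 (chromosome 12, 71439770 to 71586310), a marker of stem cells in several epithelia and a feedback target, stood at 2.18, 2.76 and 2.37 CPM in shcontrol and at 0.731, 0.664 and 0.502 CPM in shATXN7L3. Every knockdown library was far below every control library, though the level rests on 49 to 60 counts per control library and 12 to 17 per knockdown library (-1.94 ± 0.22, edgeR adjusted p = 2.24e-06). LGR4, which was far more abundant, fell from 108, 105 and 109 CPM to 93.6, 88.4 and 88.4 CPM (-0.26 ± 0.045, edgeR adjusted p = 2.91e-04). The groups did not overlap. LGR6 had 1, 2 and 1 counts in shcontrol and 0 in each knockdown library, which is under the limit of detection in both groups.

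The ubiquitin ligases that LGR proteins hold in check did not move together. RNF43 fell from 81.7, 83.0 and 81.0 CPM to 62.3, 63.0 and 67.2 CPM, again without overlap (-0.35 ± 0.047, edgeR adjusted p = 1.45e-05). Its exons overlap 143 bases of SUPT4H1 on the same strand and 1521 bases of TSPOAP1-AS1 on the opposite strand, so part of its counts may be theirs; TSPOAP1-AS1 also fell (-0.25), while SUPT4H1 had a value of -0.16 that did not pass. ZNRF3 went from 24.4 ± 0.856 to 26.5 ± 0.192 CPM (SD, n = 3 libraries each). It did not pass the test although its groups were separated (0.12 ± 0.057, SE of the fit, edgeR adjusted p = 0.143).

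**Figure D3:**
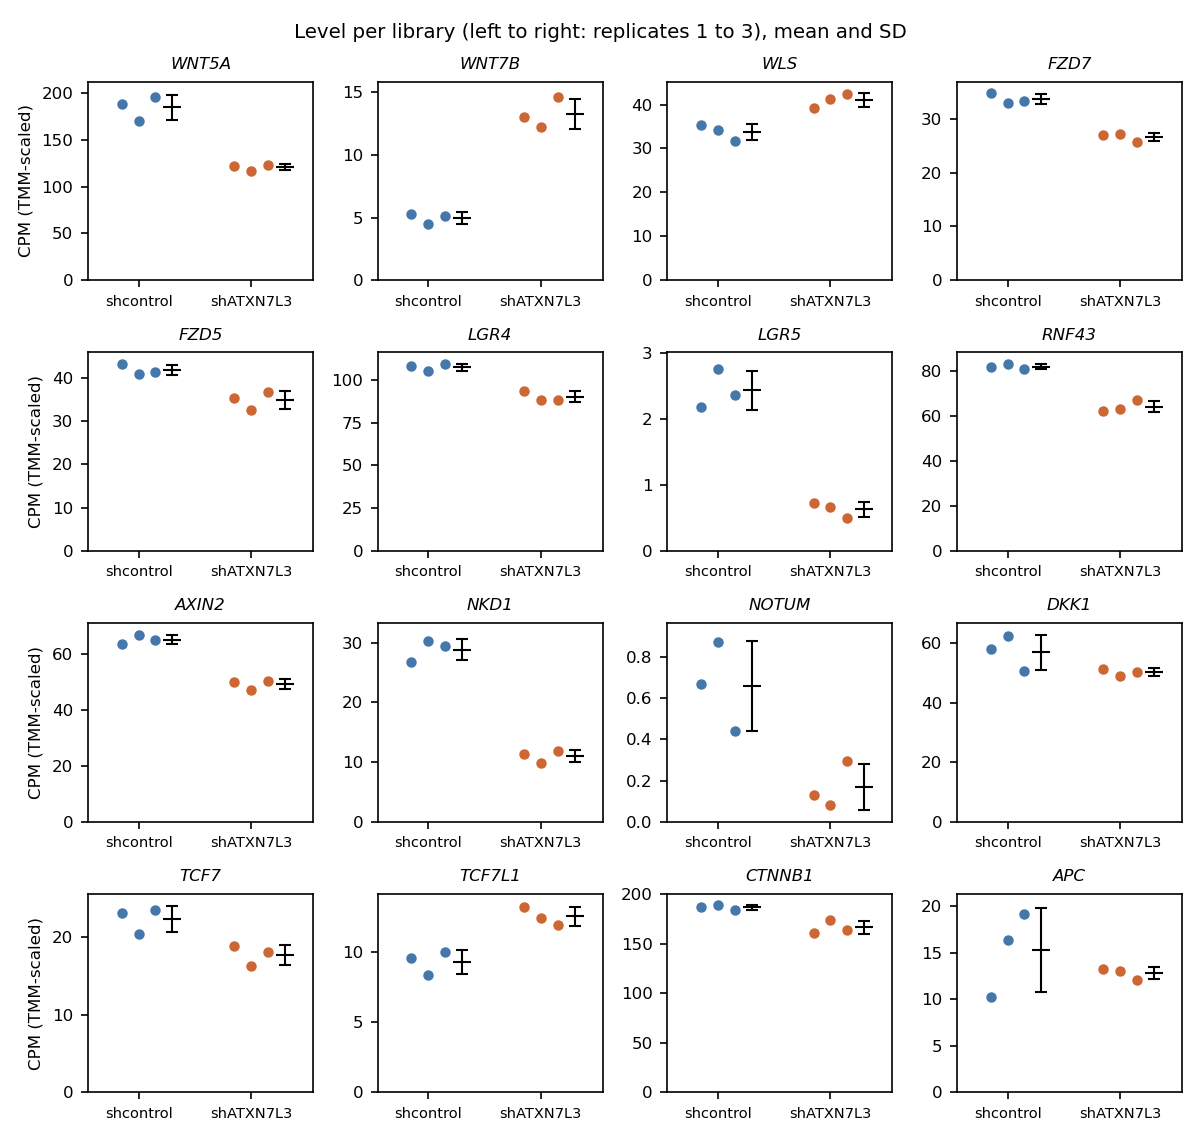
TMM-scaled CPM of 16 Wnt genes in each library (points, replicates 1 to 3 from left to right) with the mean and SD of each group (black); every vertical axis starts at 0. WNT7B, WLS and TCF7L1 are higher in every shATXN7L3 library, DKK1 and APC overlap between the groups, and the others are lower in every shATXN7L3 library.

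Inside the cell, the inhibitors that beta-catenin switches on were lower. NKD1 (chromosome 16, 50548330 to 50649249), which binds Dishevelled and dampens the signal, stood at 26.8, 30.3 and 29.4 CPM in shcontrol and at 11.4, 9.87 and 11.8 CPM in shATXN7L3. No control library came near a knockdown library, and NKD1 had the smallest adjusted p of all the Wnt genes tested (-1.39 ± 0.075, edgeR adjusted p = 6.31e-11). AXIN2 (chromosome 17, 65528563 to 65561647), a scaffold of the destruction complex and the most widely used readout of the pathway, went from 63.6, 66.7 and 65.1 CPM to 50.1, 47.2 and 50.4 CPM. The groups were separated and the log2 fold change was -0.40 ± 0.049 (edgeR adjusted p = 4.46e-06). AXIN2 overlaps 1316 of its 5226 exonic bases with the gene CTD-2535L24.2 on the same strand, which itself went from 23.5 to 18.5 CPM, and reads in these bases cannot be told apart. NKD2, a relative of NKD1, was near 1 CPM with overlapping groups (-0.44 ± 0.29, edgeR adjusted p = 0.313).

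Of the inhibitors outside the cell, NOTUM, DKK3 and DKK1 fell. NOTUM (chromosome 17, 81952507 to 81961840) was rare, with 15, 19 and 10 counts in the control libraries and 3, 2 and 7 in the knockdown libraries. The groups did not overlap and the log2 fold change was -1.93 ± 0.44 (edgeR adjusted p = 0.00307), with a range of -2.58 to -1.61 over the alternatives in which it was tested. NOTUM was tested because of its level in the control libraries, so its call is limited by that. DKK3, a divergent member of the Dickkopf family, had a log2 fold change of -0.37 ± 0.056, from 37.0 ± 1.21 to 28.6 ± 1.24 CPM (SD, n = 3 libraries each; edgeR adjusted p = 5.73e-05). DKK1, which per kilobase was the most abundant of these inhibitors (25.8 ± 2.69 RPKM in shcontrol), stood at 58.0, 62.2 and 50.5 CPM and at 51.4, 48.8 and 50.3 CPM. The lowest control library lay within the range of the knockdown libraries. Its log2 fold change of -0.18 ± 0.062 passed narrowly (edgeR adjusted p = 0.0398) and lost the call with DESeq2 (0.0669), with scaling by library size alone (0.107), without shcontrol replicate 2 (0.25, log2 fold change -0.11) and without shATXN7L3 replicate 1 (0.0759), 2 (0.156) or 3 (0.111). Without shcontrol replicate 3 the adjusted p was 4.21e-04. KREMEN1, a receptor for Dickkopf proteins, had overlapping groups between 2.94 and 4.11 CPM (0.18 ± 0.14, edgeR adjusted p = 0.377), and APCDD1 had 1 count in all libraries together.

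The core of signal transduction changed little. CTNNB1 stood at 187, 189 and 184 CPM in shcontrol and at 161, 174 and 164 CPM in shATXN7L3. The groups did not overlap, and the log2 fold change was -0.17 ± 0.044 (edgeR adjusted p = 0.00934). It lost its call without shATXN7L3 replicate 1 (0.0844) or 3 (0.0654). AXIN1, the constitutive scaffold, lay at 94.2, 88.8 and 84.1 CPM and at 81.9, 88 and 80.7 CPM, with overlap (-0.09 ± 0.052, edgeR adjusted p = 0.222). Without shcontrol replicate 3 it passed at -0.14 (0.0477). These are mRNA levels; beta-catenin is controlled mainly by its stability as a protein, which was not measured.

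APC had widely spread control libraries, at 10.3, 16.4 and 19.2 CPM against 13.3, 13.0 and 12.1 CPM in shATXN7L3. The knockdown values all fell between the lowest control library and the other two (-0.26 ± 0.14, edgeR adjusted p = 0.199). Leaving out shcontrol replicate 1 gave -0.48, which passed (5.78e-05), leaving out shcontrol replicate 3 gave -0.06 (0.762), and with no filter on low counts it passed at -0.26 (0.0147). APC overlaps 230 bases of the gene CTC-554D6.1 on the same strand. Of the Dishevelled genes, DVL1 rose from 16.6 ± 0.419 to 20.3 ± 0.128 CPM (SD, n = 3 libraries each). Its log2 fold change was 0.29 ± 0.063 (SE of the fit, edgeR adjusted p = 0.00203). DVL3, which per kilobase was the most abundant of the family (14.3 ± 0.313 RPKM in shcontrol), had a log2 fold change of 0.06, and DVL2 one of 0.00; neither passed.

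The TCF factors that pair with beta-catenin split. TCF7L2, the most abundant of them per kilobase (9.18 ± 0.457 and 9.12 ± 0.398 RPKM), lay at 60.7, 65.4 and 59.5 CPM in shcontrol and at 61.4, 58.8 and 64.2 CPM in shATXN7L3. The groups overlapped, and the interval of 2 SE each way ran from -0.11 to 0.09 on the log2 scale. TCF7L1, known mainly as a repressor of Wnt targets, rose by 0.43 ± 0.086, from 9.29 ± 0.854 to 12.5 ± 0.649 CPM (SD, n = 3 libraries each; edgeR adjusted p = 0.00104). TCF7, itself a target of the pathway, fell by 0.33 ± 0.073, from 22.2 ± 1.66 to 17.7 ± 1.32 CPM (edgeR adjusted p = 0.00212). As a share of the summed RPKM of the 4 TCF/LEF genes, TCF7L1 went from 15.6% ± 1.54 to 20.7% ± 1.20 and TCF7 from 16.4% ± 1.34 to 12.8% ± 0.551. TCF7 shares 210 exonic bases on the opposite strand with SKP1, a gene of many more counts. LEF1 had 1 count in all libraries together. SP5, a repressor and the feedback target with 3 motif matches in the window printed above, had 5, 0 and 1 counts in shcontrol and 2, 1 and 0 in shATXN7L3, too few to compare.

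The rest of the pathway was read from 88 further genes listed by role, of which 76 have a row and 58 were tested. Of these, 13 fell, 8 rose and 37 did not pass, a share of calls of 36.2% beside 24.2% of all tested genes, and the median log2 fold change was -0.01. The 8 that rose became 5 with DESeq2, and 5 without shATXN7L3 replicate 1 or 3. With scaling by library size alone 12 rose and 10 fell, so which direction is the more frequent depends on the scaling. Of 4 tested receptors and co-receptors beyond the Frizzled genes, 3 fell (75%, where 12.0% of all tested genes fell). LRP5, a co-receptor, went from 199, 166 and 189 CPM to 137, 141 and 150 CPM, and LRP6, its relative, from 325, 346 and 369 CPM to 291, 280 and 288 CPM. Both were lower in every knockdown library (-0.37 ± 0.058 and -0.27 ± 0.048, edgeR adjusted p = 7.43e-05 and 2.53e-04). ROR1, a receptor kinase for WNT5A, was also lower (-0.35 ± 0.054, edgeR adjusted p = 7.12e-05).

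Of the secreted and surface inhibitors of this further list, 4 were tested, 2 fell and 1 rose (75% called, beside 24.2% of all tested genes). SOST, sclerostin, a blocker of LRP5 and LRP6 best known from bone, went from 5.51, 4.93 and 6.64 CPM to 1.29, 1.45 and 1.46 CPM. All knockdown libraries lay far below the control libraries (-2.02 ± 0.16, edgeR adjusted p = 1.84e-08). SFRP4, which binds Wnt proteins, had 47, 39 and 35 counts in the control libraries and 23, 21 and 10 in the knockdown libraries (-1.25 ± 0.26, edgeR adjusted p = 0.00133). TRABD2B, a membrane protease that inactivates Wnt proteins, rose from 0.578, 0.598 and 0.395 CPM to 1.12, 1.12 and 1.09 CPM (1.08 ± 0.27, edgeR adjusted p = 0.00557), which is 9 to 13 counts per control library and 26 or 27 per knockdown library. For SFRP4 and TRABD2B, 3 libraries were above the filter on low counts only in the group where the gene is high, and their tests carry the same limit as that of NOTUM. TRABD2B shares 407 exonic bases with RP11-543D5.2, read in the same direction. The fourth tested, TRABD2A, did not pass. Of the R-spondin genes, RSPO4 was the 1 with a row and had 1 count.

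**Figure D4:**
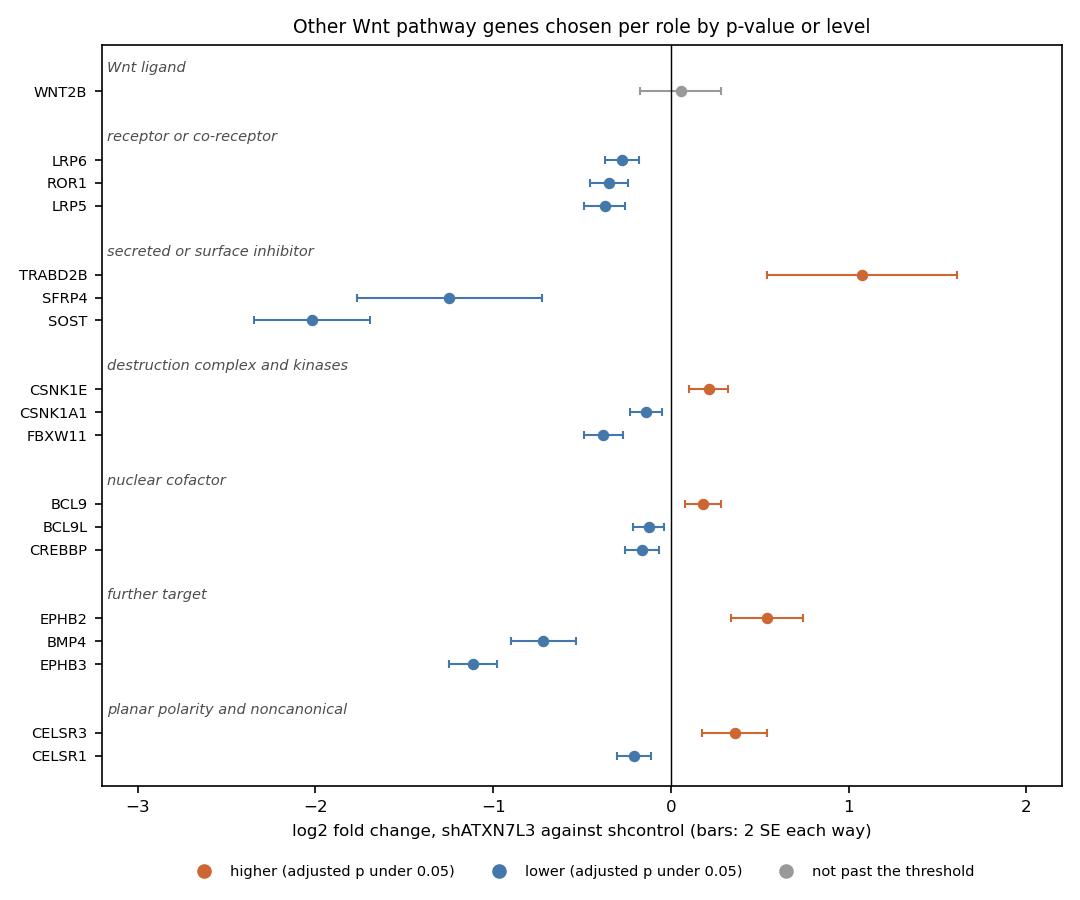
Log2 fold change (shATXN7L3 against shcontrol) of 18 further Wnt pathway genes, up to 3 per role with the smallest p among those that passed, or that highest in CPM where none passed, with bars of 2 SE each way. Because the genes were picked by p, the plot shows sizes and not how often such genes changed; SOST (-2.02) and EPHB3 (-1.11) lie to the left and TRABD2B (1.08) to the right.

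Further genes known as targets of the pathway also went both ways: of 12 tested, 3 were lower, 2 higher and 7 did not pass. This is 41.7% called, beside 24.2% of all tested genes, and the median log2 fold change was -0.05. The 7 that did not pass were MYC, CCND1, TBX3, SOX9, CD44, PPARD and OAT, with log2 fold changes from -0.12 to 0.17. EPHB3, a receptor kinase that guides cell position, fell from 29.6, 27.3 and 27.5 CPM to 13.3, 12.3 and 13.4 CPM (-1.11 ± 0.066, edgeR adjusted p = 2.14e-10). Its relative EPHB2, also a known target, rose from 6.89, 8.01 and 6.28 CPM to 9.85, 11.2 and 9.67 CPM (0.54 ± 0.10, edgeR adjusted p = 5.42e-04). Neither gene had overlapping groups. BMP4, a ligand of another pathway, fell by 0.72 ± 0.092 (edgeR adjusted p = 7.98e-06). Also past the threshold were GLUL, lower (-0.19, edgeR adjusted p = 0.00271), and MMP7, higher (0.31, edgeR adjusted p = 0.0102). Of the 16 tested genes of the destruction complex and its kinases, 3 rose and 2 fell (31.2%). FBXW11, a subunit of the ubiquitin ligase for beta-catenin, fell by 0.38 ± 0.055 (edgeR adjusted p = 3.33e-05). CSNK1E, a kinase that acts on Dishevelled, rose by 0.21 ± 0.055 (edgeR adjusted p = 0.00755; 0.0549 without shATXN7L3 replicate 3); 369 of its exonic bases are shared with RP3-449O17.1.

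CSNK1A1, the kinase that primes beta-catenin for removal, had a value of -0.14 (edgeR adjusted p = 0.0256), which did not pass with scaling by library size alone (0.123), without shcontrol replicate 2 (0.067) or without shATXN7L3 replicate 1 (0.0806), 2 (0.0501) or 3 (0.152). It shares 2917 of 7745 exonic bases with CTB-89H12.4 on the same strand. Among 11 nuclear cofactors, 1 rose and 2 fell, a share of calls (27.3%) near the 24.2% of all tested genes. BCL9, which links beta-catenin to its coactivators, rose by 0.18 (edgeR adjusted p = 0.0118; 0.0511 and 0.0664 without shATXN7L3 replicates 1 and 2). CREBBP, a histone acetyltransferase, had a value of -0.16 (edgeR adjusted p = 0.0194), and its call ended with scaling by library size alone (0.104), without shcontrol replicate 3 (0.0578) and without any of the shATXN7L3 libraries (0.0783, 0.0859 and 0.0604). BCL9L, the relative of BCL9, had a value of -0.12 (edgeR adjusted p = 0.0437), and its call ended under 7 of 14 alternatives, among them the removal of shcontrol replicate 1 (0.0522) or 3 (0.0583) or of any shATXN7L3 library (0.219, 0.107 and 0.0881). BCL9L shares 3925 of 10470 exonic bases with CXCR5 on the opposite strand. Planar polarity genes were also called at about that share (25% of 8 tested): the cadherin CELSR1 fell by 0.21 ± 0.049 (edgeR adjusted p = 0.00373) and CELSR3 rose by 0.36 ± 0.091 (0.00657; 0.0614 without shATXN7L3 replicate 3). The 3 further Wnt ligands tested, WNT4, WNT2B and WNT10B, had edgeR adjusted p of 0.724, 0.78 and 0.846. WNT2B, the highest of them in CPM, stood at 4.85 ± 0.293 and 5.04 ± 0.176 CPM (SD, n = 3 libraries each; edgeR adjusted p = 0.78), and 2661 of its 12561 exonic bases are shared with ST7L on the opposite strand. Per kilobase WNT4 was higher (0.798 ± 0.0833 and 0.753 ± 0.0718 RPKM) than WNT2B (0.386 ± 0.0233 and 0.401 ± 0.0140).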

How the data were processed

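Poly-A RNA of 6 HCCLM3 libraries was measured by sequencing. What was deposited for each gene is a whole-number count of reads, not normalized. Per the submitters' processing notes, the tools were edgeR 3.12.1, Subread 1.5.1 (with featureCounts), STAR 2.5.3a and Trimmomatic 0.36, on GRCh38. Strandedness, gene annotation release and multi-mapping were not stated. Exon lengths (other unit, bases) and coordinates came with the deposited counts.

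Genes were kept with filterByExpr of edgeR (minimum count 10, minimum total 15) and scaled by TMM. Groups were compared over all 17935 genes with the quasi-likelihood test of edgeR 4.0.16 in R 4.3.3, with Benjamini-Hochberg adjustment and a threshold of 0.05. The SE is the log2 fold change divided by the square root of F, an approximation. Alternatives were other scalings and filters, DESeq2 1.42.0, limma 3.58.1 voom, a replicate block and leaving out each library. The procedure was run on simulated counts drawn with the same spread for all genes and both groups. They do not mirror the unequal spread of the libraries, and no result here rests on them. Libraries of a group differed by more than sampling noise. The chi-square per gene was 3.6 to 6.52 between shcontrol libraries and 1.59 to 2.18 between shATXN7L3 libraries.

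The 47 genes and the lists were chosen with earlier results of these data known. Values per library are given for members past the threshold with an absolute log2 fold change of at least 0.5, for CTNNB1, AXIN1 and APC, and for the most abundant member per role. Of the further genes, up to 3 past the threshold per role with the smallest p are named, or that highest in CPM where none passed. GLUL and MMP7 are named besides, to complete the further targets that passed. The further targets that were tested and did not pass are named too. Promoters are RefSeq windows of GRCh38.p14.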

Additional observations from a re-analysis of the deposited data

How the results depend on the processing

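Of the 18 Wnt genes past the threshold, 15 kept their call and direction under every alternative that tested them. The exceptions were WNT3, DKK1 and CTNNB1. NOTUM is among the 15, although it was tested because of its control level and was not tested under the stricter filter. Ligands and receptors that rose numbered 2, and 1 with upper-quartile scaling (WNT3 at an adjusted p of 0.052), with no filter on low counts (0.0629) and with DESeq2. Leaving out 1 library at a time gave 1 to 2 of them, 6 to 7 feedback targets that fell and 5 to 10 further pathway genes that rose. DESeq2 called 1405 genes higher in all and 5 further pathway genes higher. The sign turned for 2 genes that never passed. DVL2 was -0.00403 with DESeq2 size factors, -0.00605 with upper-quartile scaling, -0.000191 with the stricter filter (a CPM of 1 in 3 libraries) and -0.0038 with DESeq2, and between -0.0676 and 0.0685 with 1 library left out. TCF7L2 was 0.034 with library size alone and between -0.0409 and 0.0315 with 1 library left out.

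Replicate numbers are the same in both groups. Same-numbered libraries did not deviate together (correlations of -0.0167, 0.00424 and 0.0437), and differently numbered ones gave -0.0714 to 0.0676. Whether same-numbered libraries were prepared together is not stated in the labels and cannot be told from these values. With the replicate block 4328 genes were called, 4188 of them also called without it, and ligands and receptors that rose went from 2 to 1 (WNT3, adjusted p = 0.0537). Genes under 3 counts per library cannot be compared at this depth.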
